A study of Mus musculus with 16 samples.

Results

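The genes described here are 52 genes of DNA replication and of the passage from G1 into S phase, listed by name with earlier results of these data known: 4 that control G1/S, 11 that license origins, 8 that activate the helicase, 21 that synthesise DNA, 4 that make deoxynucleotides and 4 that rebuild chromatin behind the fork. A probe could be paired with 47 of them, and 45 were bright enough to test, out of 31459 genes tested in all. Only 17642 of the 31459 have a symbol, and each accession without a symbol was counted as a gene of its own. Shares and medians of all genes are over both kinds. Liver RNA of male mice, 6 weeks old and of mixed C57BL/6 and SV129 background, was measured on 16 1-colour expression arrays, 1 for each sample. CerS2, ceramide synthase 2, makes ceramides with very long acyl chains, and the title of the series asks what its catalytic activity does to transcripts of lipid metabolism and cell division. The labels give 4 genotypes with 4 samples each, named CerS2 H/A, CerS2 Del (condition delHox), CerS2 Flox (condition delneo) and WT. H/A is not spelled out there, and in work on ceramide synthases it stands for a histidine of the catalytic site replaced by alanine. What the Del and Flox alleles contain, and whether a Cre was used, is not given in the sources used here. Nor do the labels say that the 4 samples of a genotype came from separate mice, and if some did not, the p-values measure only the spread between samples. No probe could be paired with the CerS2 gene, which is therefore not analysed here, so the labels were not checked against the targeted gene.

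Replication is prepared in G1, when the origin recognition complex, Cdc6 and Cdt1 load the ring of Mcm2 to Mcm7 onto DNA, which is called licensing. Cyclin D and then cyclin E with their kinases inactivate the retinoblastoma proteins, which frees E2F factors to transcribe most of the genes of this list. The kinase Dbf4-Cdc7 and the cyclin-dependent kinases then let Cdc45 and the GINS complex join the ring and unwind the origin. In the adult liver nearly every hepatocyte is out of the cycle, and the list is known for its rise after partial hepatectomy.

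Before any comparison, the pairing of samples and scanner files needs stating. For 6 of 16 samples the scanner file listed for the sample came from another slide than the sample's label names (1 H/A, 1 Del, 3 Flox and 1 WT sample). In all 6 the deposited value column matched the file at the label's position (r from 0.885 to 0.996 over probes, each probe set against its mean over the arrays) and not the listed file (r from -0.301 to 0.169). Values here are those of the deposited columns, with groups from the labels. With the listed files in their place, 0 of 45 genes were called in H/A or Del against WT or in Del against Flox by limma, and 2, 3 and 3 genes had an unadjusted p under 0.05. Without the 6 samples, the counts of genes called higher were 10 for H/A against WT, 16 for Del against WT and 11 for Del against Flox, the last with 1 Flox array (1.43%, 2.86% and 0.677% of all genes were called higher). Between 51.6% and 65.2% of an array's spots were well above background. The 75th percentile of the signal before scaling was 109 to 173 in H/A, 91.2 to 115 in Del, 86.1 to 112 in Flox and 89.7 to 98.8 in WT arrays, so H/A arrays were brighter than WT arrays before the authors' quantile normalisation.

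Against WT, the list was higher in both mutant lines. In H/A livers 25 of 45 genes rose and none fell (7.08% of all genes tested were called higher and 2.98% lower, at an adjusted p under 0.05). In Del livers 26 rose and 1, Cdc6, fell (8.86% of all genes were called higher and 4.38% lower). The median log2 difference of the 45 genes was 0.66 in H/A and 0.71 in Del livers, against -0.10 and -0.11 over all genes tested. Del livers set against Flox livers gave 29 genes that rose and 2, Cdc6 and Clspn, that fell (16.6% and 18.2% of all genes), with a median of 0.72 against -0.14 over all genes. These shares of all genes moved when single arrays were left out. In H/A against WT, 3.68% were higher and 0.928% lower without WT 4, and 12% and 13.5% without WT 2. In Del against WT the shares were 5.09% and 1.87% without Del 3, and 12.1% and 10.7% without WT 2. In Del against Flox they were 10.1% and 6.1% without Del 3, and 17.9% and 21.1% without WT 2. Flox against WT had 0 of 45 genes called by limma (2 with an unadjusted p under 0.05), beside 0.00318% of all genes called higher and 0.0191% called lower, and the median was -0.06. The medians are the same when genes below background in a group are set at their lower bounds. In bulk liver, fewer cells of a type and less RNA per cell cannot be told apart.

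**Figure D1:**
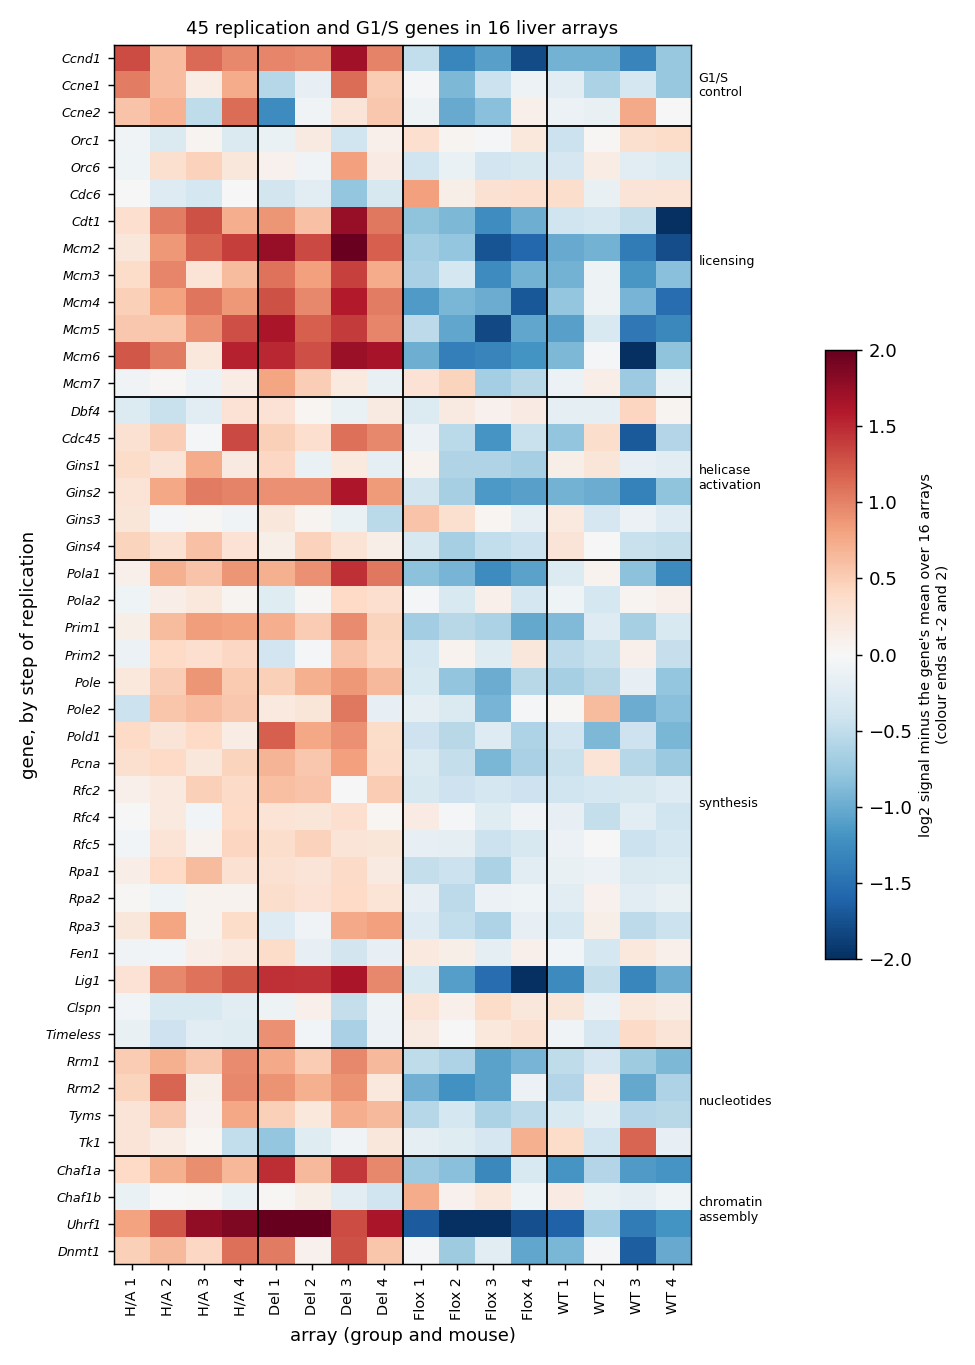
Log2 signal of each of 45 genes (rows, by step of replication) on each of 16 arrays (columns, H/A, Del, Flox, WT), as the difference from the gene's own mean over the 16 arrays. Most rows are red across the 8 H/A and Del arrays and blue across the 8 Flox and WT arrays, and Cdc6 and Clspn run the other way.

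**Figure D2:**
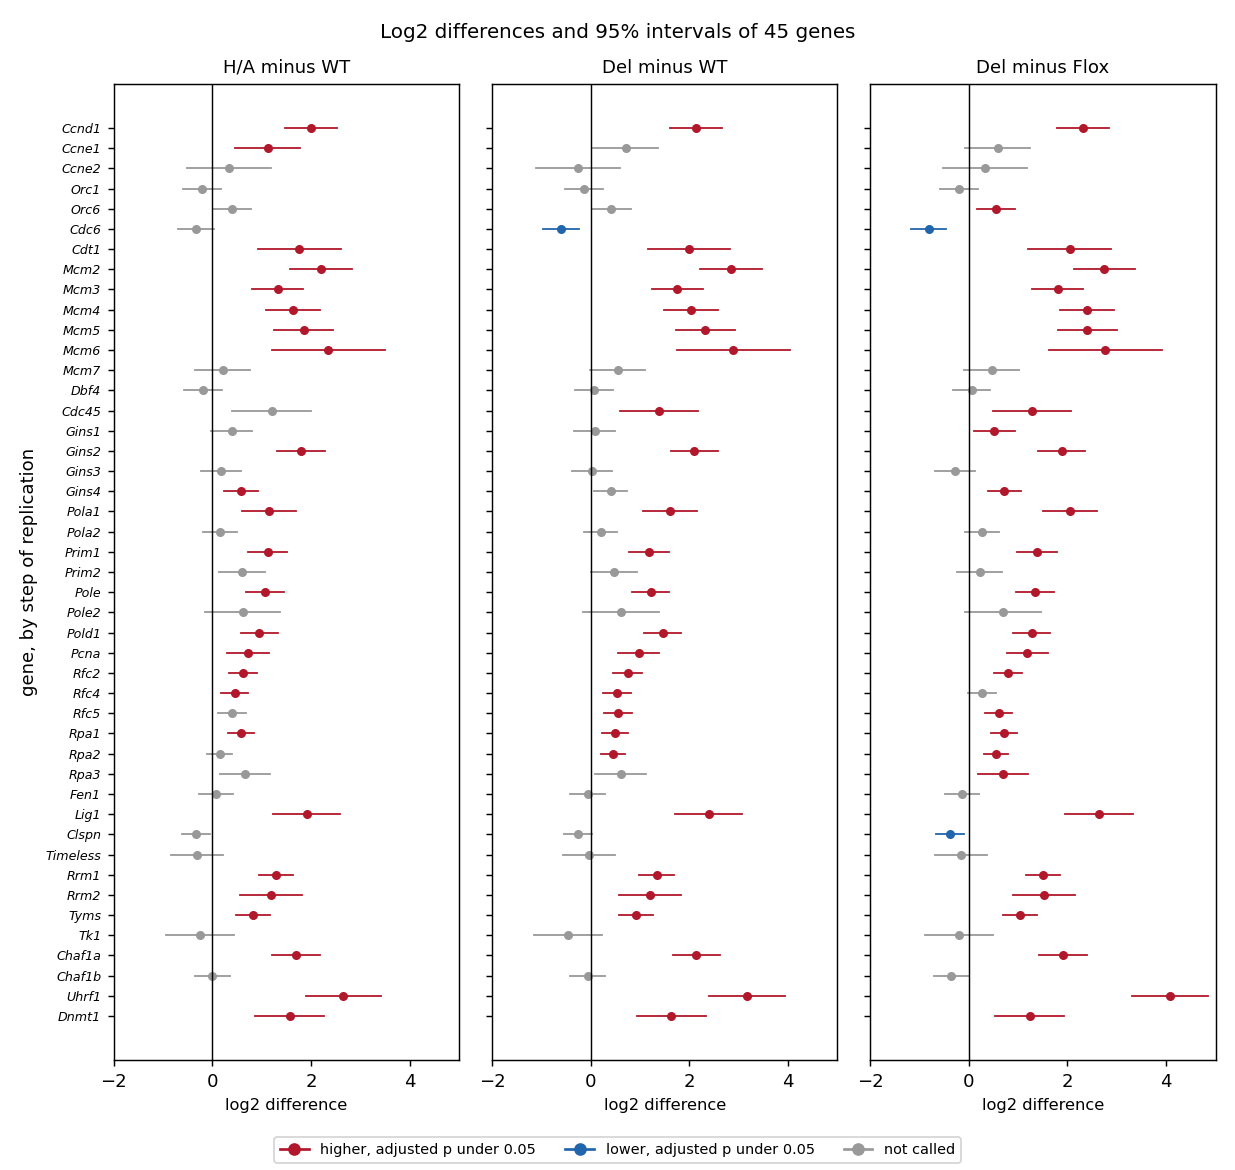
Log2 differences of 45 genes with their 95% intervals for H/A minus WT (25 called higher), Del minus WT (26 higher, 1 lower) and Del minus Flox (29 higher, 2 lower). Red points were called higher and blue points lower at an adjusted p under 0.05, and grey points were not called.

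H/A against WT and Del against Flox share no array. Both come from 1 limma model, however, and share its estimate of spread and the scaling between arrays. They had 23 called genes in common, which is 92% of the 25 H/A genes and 79.3% of the 29 Del genes. Over all genes tested, 1962 were called higher in both, which is 88.1% of the 2226 H/A genes and 37.5% of the 5228 Del genes. The 2 that rose in H/A against WT and were not called in Del against Flox were Ccne1 and Rfc4. Of the 6 the other way, Rpa2 had a difference of 0.14 in H/A (95% interval -0.11 to 0.39) and 0.55 in Del minus Flox, and Rfc5, Rpa3, Orc6, Gins1 and Cdc45 had positive differences in both. The difference between the comparisons was itself tested, and 0 of 45 genes were called by limma, with 3 at an unadjusted p under 0.05 (of all genes, 0% were called higher and 0.00318% lower). Its most negative value was Uhrf1, -1.43 (95% interval -2.51 to -0.35, adjusted p = 0.623). Most Flox and WT signals of Uhrf1 were not well above background, so this value rests partly on dim signals. H/A set against Del directly also called 0 of 45 genes by limma, with 3 at an unadjusted p under 0.05, Pold1, Rpa2 and Mcm2 (0.00954% and 0.00318% of all genes were called higher and lower). Mcm2 differed by -0.64 there (95% interval -1.27 to -0.02), lower in H/A, and 33 of 45 differences were below 0. A missed threshold does not show that the lines act alike, and the 95% intervals of H/A minus Del reached -1.69 for Mcm6 and 1.45 for Ccne2.

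Promoter windows from RefSeq (GRCm38.p6, 250 bases before to 50 after a start site) were available for 41 of the 52 genes, and were searched on both strands for the letters TTTCCCGC, TTTGGCGC, TTTCGCGC and TTTGCCGC, a set of E2F sites. They were present in 16 of 41 genes (39.0%), against 704 of 27025 genes (2.61%) with a window. A gene with several windows counts as a match if any of them holds one. The CCAAT letters bound by NF-Y were present in 24 of 41 (58.5%, against 41.1% of all genes), and the TTTGAA letters of the CHR element, better known from mitotic genes, in 7 of 41 (17.1%, against 20.2%). Of the members tested, the 15 with an E2F match had a median log2 difference of 1.14 in H/A against WT, 1.61 in Del against WT and 1.27 in Del against Flox. The 21 without a match had 0.57, 0.55 and 0.61. In H/A against WT, 9 of the 15 with a match and 10 of the 21 without were called higher. These are descriptions of letters in a window, and no match says only that these letters are absent there. The 250 bases before a start site of 6 genes are printed 5′ to 3′, with the matches in capitals. Uhrf1 has a further window, at another start site, that holds no match and is not printed. Mcm6, Mcm5, Uhrf1 and Pola1 rose in H/A and Del livers, Cdc6 was lower in Del livers, and Orc1, which holds a match too, was not called in either line. Where 2 matches overlap on opposite strands (Mcm6 and Mcm5), the capitals run on.
Mcm6, chr1:128359706-128359955, reverse strand: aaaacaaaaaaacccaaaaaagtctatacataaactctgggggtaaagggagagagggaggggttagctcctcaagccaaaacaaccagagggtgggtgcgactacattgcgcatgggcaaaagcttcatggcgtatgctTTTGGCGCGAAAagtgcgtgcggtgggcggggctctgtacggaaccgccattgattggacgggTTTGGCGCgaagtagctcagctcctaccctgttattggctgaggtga
Mcm5, chr8:75109259-75109508, forward strand: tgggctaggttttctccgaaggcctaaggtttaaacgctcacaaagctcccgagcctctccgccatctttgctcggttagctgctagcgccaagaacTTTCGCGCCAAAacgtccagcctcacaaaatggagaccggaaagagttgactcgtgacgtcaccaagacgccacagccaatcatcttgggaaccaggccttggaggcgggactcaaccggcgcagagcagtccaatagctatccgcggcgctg
Uhrf1, chr17:56304063-56304312, forward strand: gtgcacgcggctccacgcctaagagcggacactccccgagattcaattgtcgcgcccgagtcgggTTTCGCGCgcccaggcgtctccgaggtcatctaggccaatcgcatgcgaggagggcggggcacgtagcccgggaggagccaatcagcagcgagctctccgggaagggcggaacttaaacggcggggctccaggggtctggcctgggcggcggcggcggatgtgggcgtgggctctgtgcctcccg
Pola1, chrX:93632156-93632405, reverse strand: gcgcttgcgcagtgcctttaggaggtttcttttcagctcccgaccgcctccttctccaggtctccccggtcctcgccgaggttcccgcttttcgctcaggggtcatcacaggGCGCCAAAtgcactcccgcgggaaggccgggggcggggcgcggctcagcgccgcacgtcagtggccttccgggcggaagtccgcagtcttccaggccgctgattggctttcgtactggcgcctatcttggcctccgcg
Cdc6, chr11:98907901-98908150, forward strand: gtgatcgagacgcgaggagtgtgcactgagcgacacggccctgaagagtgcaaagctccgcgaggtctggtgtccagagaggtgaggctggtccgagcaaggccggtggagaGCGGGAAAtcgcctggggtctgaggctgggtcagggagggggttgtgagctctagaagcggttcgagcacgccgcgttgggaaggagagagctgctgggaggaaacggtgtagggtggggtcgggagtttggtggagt
Orc1, chr4:108579204-108579453, forward strand: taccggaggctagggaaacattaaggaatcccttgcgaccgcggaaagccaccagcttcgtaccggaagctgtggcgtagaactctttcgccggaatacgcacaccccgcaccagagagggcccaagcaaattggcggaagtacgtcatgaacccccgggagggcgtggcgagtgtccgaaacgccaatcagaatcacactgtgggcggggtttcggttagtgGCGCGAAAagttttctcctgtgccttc
Of all tested genes with a match, Orc1, Mcm7, Gins3 and Pole2 were not called by the probe used in any of the 3 comparisons, and Cdc6 and Clspn fell in Del livers.

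Of the genes that control G1/S, Ccnd1, cyclin D1, which answers growth signals, rose in both lines. Its log2 signal was 10.53, 9.84, 10.36 and 10.19 in H/A livers and 10.20, 10.17, 10.91 and 10.21 in Del livers, against 8.73, 7.92, 8.13 and 7.43 in Flox livers and 8.27, 8.28, 7.91 and 8.46 in WT livers. The 8 mutant arrays lay above all 8 Flox and WT arrays. The differences were 2.00 ± 0.25 for H/A minus WT (adjusted p = 0.000299), 2.14 ± 0.25 for Del minus WT (adjusted p = 8.53e-05) and 2.32 ± 0.25 for Del minus Flox (adjusted p = 5.24e-05) (each ± is the standard error of the fit, and an increase of 1 is a doubling of signal). Ccne1, cyclin E1, which drives entry into S phase, had 7.01, 6.60, 6.13 and 6.73 in H/A livers and 5.42, 5.82, 7.10 and 6.50 in Del livers, against 5.96, 5.09, 5.55 and 5.89 in Flox livers and 5.76, 5.36, 5.64 and 5.24 in WT livers. The H/A arrays lay above the WT arrays without overlap, while the Del values spread widely and overlapped both Flox and WT. It rose in H/A (1.12 ± 0.31, adjusted p = 0.0332), and the Del differences were 0.71 ± 0.31 against WT (adjusted p = 0.126) and 0.58 ± 0.31 against Flox (adjusted p = 0.14). The H/A call ended when any of the arrays H/A 1, H/A 2, H/A 4, WT 3, WT 4 was left out (adjusted p = 0.0624 to 0.0991), and without Del 1 both Del comparisons were called. Ccne2, cyclin E2, had 4.74, 4.86, 3.66 and 5.30 in H/A livers and 2.92, 4.11, 4.43 and 4.71 in Del livers, against 4.08, 3.16, 3.34 and 4.28 in Flox livers and 4.06, 4.02, 4.93 and 4.17 in WT livers. These groups overlapped throughout, 3 of its arrays were not well above background, and no comparison called it. E2f1, the transcription factor released at this step, had no probe that could be paired.

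**Figure D3:**
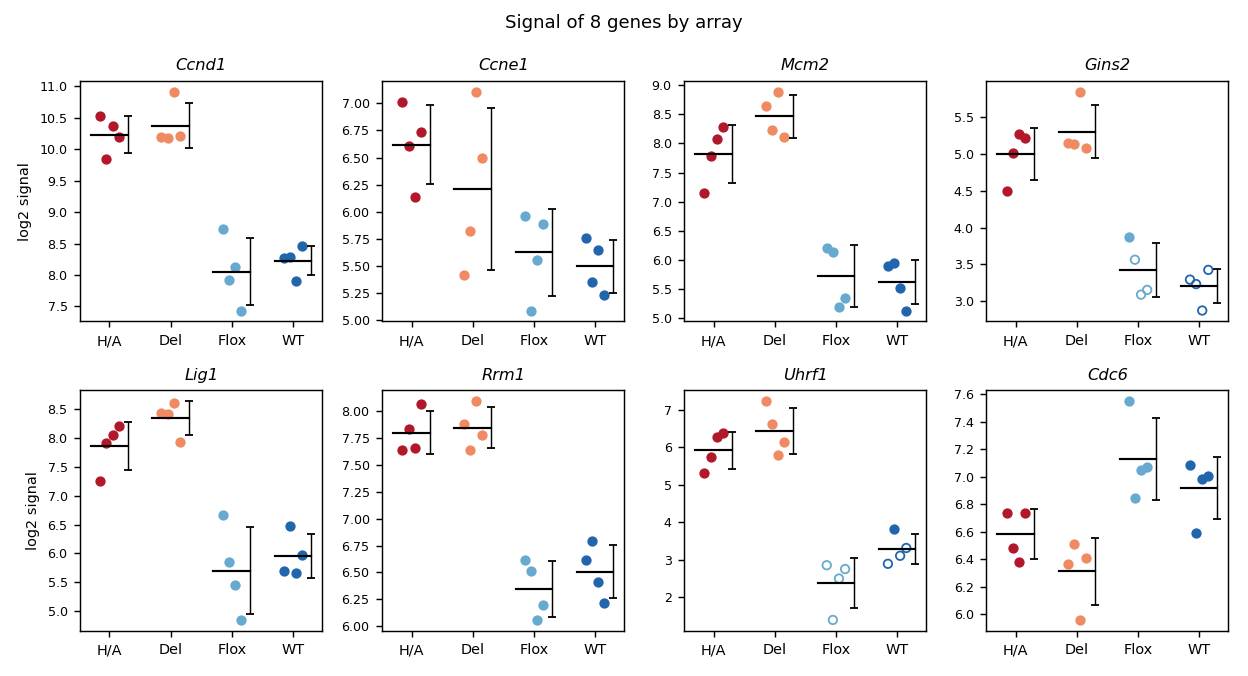
Log2 signal of 8 genes on each array by genotype (H/A, Del, Flox, WT); the bar is the mean, the whisker 1 SD of 4 arrays, and open circles are values not well above background. Ccnd1, Mcm2, Gins2, Lig1, Rrm1 and Uhrf1 separate the 8 mutant arrays from the 8 others, Ccne1 overlaps in Del, and Cdc6 is lower in Del.

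In licensing, 6 of 10 genes tested rose in H/A and 6 rose in Del against WT, and 7 rose in Del against Flox. They were Mcm2, Mcm3, Mcm4, Mcm5 and Mcm6, subunits of the ring helicase, with the loader Cdt1, and in Del against Flox also Orc6, a subunit of the origin recognition complex. Median differences of the 10 genes were 1.48, 1.87 and 1.92. Of all genes tested, 7.08%, 8.86% and 16.6% were called higher in these comparisons, and 2.98%, 4.38% and 18.2% lower. These shares also stand beside the counts of the steps below. Mcm2 had log2 signals of 7.14, 7.78, 8.08 and 8.29 in H/A livers and 8.65, 8.22, 8.88 and 8.10 in Del livers, against 6.21, 6.14, 5.18 and 5.34 in Flox livers and 5.89, 5.95, 5.51 and 5.13 in WT livers. The lowest mutant array, H/A 1, lay above the highest of the others, Flox 1. Its differences were 2.20 ± 0.29 for H/A minus WT (adjusted p = 0.000498), 2.84 ± 0.29 for Del minus WT (adjusted p = 3.98e-05) and 2.75 ± 0.29 for Del minus Flox (adjusted p = 5.24e-05). Mcm5 had 5.62, 5.63, 6.00 and 6.37 in H/A livers and 6.71, 6.26, 6.47 and 6.05 in Del livers, against 4.55, 4.04, 3.27 and 4.04 in Flox livers and 3.99, 4.78, 3.65 and 3.79 in WT livers. Again no mutant array overlapped with Flox or WT. The differences were 1.85 ± 0.28 for H/A minus WT (adjusted p = 0.0011), 2.32 ± 0.28 for Del minus WT (adjusted p = 0.000121) and 2.4 ± 0.28 for Del minus Flox (adjusted p = 9.53e-05). Mcm4 had 5.84, 6.16, 6.43 and 6.22 in H/A livers and 6.63, 6.32, 6.95 and 6.38 in Del livers, against 4.23, 4.45, 4.36 and 3.67 in Flox livers and 4.59, 5.26, 4.43 and 3.83 in WT livers. WT 2 was the highest of the Flox and WT arrays and still lay below all mutant arrays. Its differences were 1.64 ± 0.26 for H/A minus WT (adjusted p = 0.00141), 2.04 ± 0.26 for Del minus WT (adjusted p = 0.000159) and 2.39 ± 0.26 for Del minus Flox (adjusted p = 5.48e-05).

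The other licensing genes did not all follow. Mcm6 was the ring subunit with the most spread: it ran 7.80 to 9.13 in H/A, 8.89 to 9.33 in Del, 6.22 to 6.62 in Flox and 3.96 to 7.58 in WT livers, where WT 3 lay far below the other WT arrays, and the differences were 2.34, 2.89 and 2.76, each called. Without WT 3, Mcm6 differed by 1.58 for H/A minus WT and by 2.12 for Del minus WT, both still called. The Orc6 call in Del against Flox ended without any of Del 3 and Flox 1, 3 and 4 (adjusted p = 0.0584 to 0.103). Cdt1 ran 5.72 to 6.66 in H/A, 5.98 to 7.13 in Del, 4.15 to 4.59 in Flox and 2.92 to 5.04 in WT livers, with WT 4 below the others, and differed by 1.76, 1.99 and 2.04, each called. Mcm3 differed by 1.32, 1.76 and 1.80, each called. Mcm7, the remaining measured ring subunit, was well above background on 8 of 16 arrays and was not called (0.21, 0.55 and 0.46). Cdc6, the ATPase that loads the ring together with Cdt1, had 6.74, 6.48, 6.38 and 6.74 in H/A livers and 6.37, 6.51, 5.96 and 6.41 in Del livers, against 7.55, 6.85, 7.05 and 7.07 in Flox livers and 7.09, 6.59, 6.99 and 7.01 in WT livers. The Del arrays lay below all Flox and all WT arrays, and H/A arrays overlapped with WT. The difference was -0.61 ± 0.17 for Del minus WT (adjusted p = 0.0299), -0.82 ± 0.17 for Del minus Flox (adjusted p = 0.00387) and -0.33 ± 0.17 for H/A minus WT (adjusted p = 0.183). The call against WT ended when any of the arrays WT 1, WT 3, WT 4, Del 3 was left out (adjusted p = 0.0766 to 0.106). A further Cdc6 probe differed by -0.34 for H/A minus WT, 0.00 for Del minus WT and -0.14 for Del minus Flox and was not called. Orc1, the largest subunit of the origin complex, ran 5.23 to 5.58 in H/A, 5.12 to 5.70 in Del, 5.48 to 5.86 in Flox and 5.09 to 5.90 in WT livers and was not called in any of the comparisons with WT or Flox. Gmnn, the inhibitor of Cdt1, had no probe that could be paired.

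In helicase activation, 2 of 6 genes rose in H/A, 2 in Del against WT and 4 in Del against Flox, with medians of 0.48, 0.24 and 0.62. The shares of all genes called higher were 7.08%, 8.86% and 16.6%. Gins2, a subunit of the GINS complex, had log2 signals of 4.50, 5.01, 5.27 and 5.22 in H/A livers and 5.14, 5.14, 5.84 and 5.09 in Del livers, against 3.87, 3.56, 3.09 and 3.15 in Flox livers and 3.29, 3.23, 2.87 and 3.42 in WT livers. It was well above background on all 8 mutant arrays, on 1 Flox array and on 0 WT arrays, so it passed the filter only through mutant arrays. Relative to WT livers, Gins2 was higher by at least 2.72-fold in H/A livers (adjusted p = 0.000315) and at least 3.36-fold higher in Del than in WT livers (adjusted p = 5.24e-05), the bound being set, on each dim array, by the higher of the lowest signal well above background and the probe's own. The adjusted p given beside a bound, here and below, is that of the fitted difference, which includes the dim signals, and does not test the bound. Against Flox the Del difference was 1.88 ± 0.22 on the log2 scale (adjusted p = 0.0001). Cdc45, which completes the active helicase with GINS, had 4.42, 4.61, 4.10 and 5.44 in H/A livers and 4.59, 4.45, 5.21 and 5.07 in Del livers, against 4.0, 3.57, 2.94 and 3.67 in Flox livers and 3.32, 4.47, 2.44 and 3.53 in WT livers. WT 2 overlapped with the mutant arrays, and 1 Flox and 1 WT array were well above background. Cdc45 thus passed the filter only through mutant arrays, and its differences rest partly on dim signals. The differences were 1.2 ± 0.37 for H/A minus WT (adjusted p = 0.0532), 1.39 ± 0.37 for Del minus WT (adjusted p = 0.0237) and 1.28 ± 0.37 for Del minus Flox (adjusted p = 0.0195), so Cdc45 rose in Del and was not called in H/A. The Del calls ended without any of the arrays WT 1, WT 3, Del 3, Del 4 against WT (adjusted p = 0.0547 to 0.0836) and without Del 3, Flox 3 against Flox (adjusted p = 0.0579 to 0.0666), and the H/A difference was called without WT 2 or without Del 3.

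Gins4, another GINS subunit, had 8.42, 8.27, 8.55 and 8.27 in H/A livers and 8.08, 8.43, 8.25 and 8.08 in Del livers, against 7.64, 7.30, 7.47 and 7.54 in Flox livers and 8.23, 7.96, 7.53 and 7.49 in WT livers. H/A arrays lay above WT arrays and Del arrays above Flox arrays, while Del and WT overlapped. It rose in H/A (0.57 ± 0.16, adjusted p = 0.035) and in Del against Flox (0.72 ± 0.16, adjusted p = 0.00535), and Del minus WT was 0.41 ± 0.16 (adjusted p = 0.0979). The H/A call ended when any of the arrays H/A 1, H/A 2, H/A 3, H/A 4, WT 3, WT 4 was left out (adjusted p = 0.0533 to 0.12), and the Del call against WT was made without WT 1. Gins1 was called in Del against Flox alone of the 3 comparisons (0.52, adjusted p = 0.0491), by a probe of a predicted transcript, and Gins3 in none. The Gins1 call was not made when each probe was fitted on its own (adjusted p = 0.0524 for this probe, 0.0691 for the curated one), and it ended without any of H/A 1, 2 and 4, WT 1, 3 and 4, Del 1 and 3 and Flox 2, 3 and 4 (adjusted p = 0.0537 to 0.124). Dbf4, the regulatory subunit of the Cdc7 kinase, was not called by its brighter probe. Cdc7 itself was well above background on 2 of 16 arrays, 1 H/A and 1 Del, and was not tested. Mcm10, a helicase activator, had no probe that could be paired.

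In DNA synthesis, 9 of 18 genes rose in H/A, 11 in Del against WT and 11 in Del against Flox, with medians of 0.60, 0.58 and 0.69. Lig1, the ligase that joins Okazaki fragments, had 7.26, 7.92, 8.06 and 8.21 in H/A livers and 8.43, 8.42, 8.60 and 7.93 in Del livers, against 6.66, 5.86, 5.45 and 4.85 in Flox livers and 5.69, 6.48, 5.67 and 5.98 in WT livers. Mutant and other arrays did not overlap, and Flox 1 and WT 2 were the highest of the others. The differences were 1.91 ± 0.32 for H/A minus WT (adjusted p = 0.00214), 2.39 ± 0.32 for Del minus WT (adjusted p = 0.000255) and 2.64 ± 0.32 for Del minus Flox (adjusted p = 0.000114). Pole, the catalytic subunit of the leading-strand polymerase epsilon, had 5.85, 6.13, 6.51 and 6.16 in H/A livers and 6.11, 6.34, 6.50 and 6.29 in Del livers, against 5.33, 4.84, 4.65 and 5.08 in Flox livers and 4.98, 5.08, 5.47 and 4.86 in WT livers. Every mutant array lay above every Flox and WT array. Its differences were 1.07 ± 0.18 for H/A minus WT (adjusted p = 0.00212), 1.22 ± 0.18 for Del minus WT (adjusted p = 0.000505) and 1.34 ± 0.18 for Del minus Flox (adjusted p = 0.000223). Prim1, the catalytic subunit of primase, had 5.96, 6.48, 6.68 and 6.65 in H/A livers and 6.57, 6.36, 6.79 and 6.29 in Del livers, against 5.15, 5.30, 5.21 and 4.82 in Flox livers and 4.97, 5.59, 5.19 and 5.55 in WT livers. The groups again did not overlap. The differences were 1.12 ± 0.19 for H/A minus WT (adjusted p = 0.00218), 1.18 ± 0.19 for Del minus WT (adjusted p = 0.000922) and 1.38 ± 0.19 for Del minus Flox (adjusted p = 0.000253).

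Among the other polymerase genes, Pola1, the catalytic subunit of polymerase alpha, rose by 1.14 in H/A and by 1.61 in Del against WT and 2.05 against Flox. Pold1, the catalytic subunit of polymerase delta, rose by 0.95, 1.46 and 1.27 in the same order, and Pcna, the sliding clamp, by 0.72, 0.98 and 1.19. The accessory subunits Pola2, Prim2 and Pole2 were not called by their brightest probe in any of the 3 comparisons. Of the clamp loader genes, Rfc2 rose in all 3 (0.62, 0.75 and 0.79), Rfc4 in both comparisons with WT, and Rfc5 in both comparisons of Del. Rpa1, the large subunit of the single-strand binding protein, rose in all 3 (0.57, 0.49 and 0.72). Its partner Rpa2 rose in Del and Rpa3 in Del against Flox. Several of these calls ended with a single array left out: Pcna in H/A (without any of H/A 2, 3 and 4 and WT 1, 3 and 4, adjusted p = 0.0596 to 0.108), Rpa1 and Rpa2 in Del against WT (without any of WT 3, WT 4 and Del 3, and for Rpa2 also WT 1, adjusted p = 0.0513 to 0.0625) and Rpa3 (without any of Del 3 and 4 and Flox 1, 2 and 3, adjusted p = 0.0611 to 0.131). For Rfc4, the H/A call ended without any of 11 arrays, H/A 2, 3 and 4, WT 1 to 4, Del 1 and 2 and Flox 2 and 4 (adjusted p = 0.0511 to 0.12), and the Del call without Del 3 (adjusted p = 0.0517). Fen1, the nuclease that trims Okazaki flaps, ran 8.05 to 8.33 in H/A, 7.76 to 8.49 in Del, 7.94 to 8.32 in Flox and 7.78 to 8.33 in WT livers and was not called.

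Clspn, claspin, an adaptor of the replication checkpoint, had 10.06, 9.81, 9.80 and 9.89 in H/A livers and 10.01, 10.21, 9.64 and 10.01 in Del livers, against 10.39, 10.21, 10.47 and 10.34 in Flox livers and 10.35, 9.99, 10.33 and 10.25 in WT livers. Del 2 reached the Flox values, and the other Del arrays lay below them. Clspn fell in Del against Flox (-0.38 ± 0.13, adjusted p = 0.0375), and the call ended when any of the arrays Del 1, Del 3, Del 4, Flox 1, Flox 3, Flox 4 was left out (adjusted p = 0.051 to 0.124). Without WT 2 the H/A difference of -0.34 (adjusted p = 0.0999 with WT 2) was called lower. The only Clspn probe past the filter is of a predicted transcript. Timeless was not called by its brighter probe, and Tipin, its partner at the fork, was well above background on 0 of 16 arrays. Rfc1 and Rfc3 had no probe that could be paired.

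Of the 4 genes for deoxynucleotides, 3 rose in each of the 3 comparisons. Rrm1, the large subunit of ribonucleotide reductase, had 7.64, 7.83, 7.66 and 8.07 in H/A livers and 7.88, 7.64, 8.09 and 7.78 in Del livers, against 6.62, 6.51, 6.06 and 6.20 in Flox livers and 6.61, 6.79, 6.41 and 6.22 in WT livers. The lowest of the 8 mutant arrays was 7.64 and the highest of the 8 others 6.79. Its differences were 1.29 ± 0.16 for H/A minus WT (adjusted p = 0.000359), 1.34 ± 0.16 for Del minus WT (adjusted p = 0.000132) and 1.5 ± 0.16 for Del minus Flox (adjusted p = 5.94e-05). Tyms, thymidylate synthase, had 7.47, 7.75, 7.30 and 7.99 in H/A livers and 7.68, 7.42, 7.94 and 7.87 in Del livers, against 6.63, 6.85, 6.58 and 6.69 in Flox livers and 6.90, 7.02, 6.62 and 6.66 in WT livers. The 8 mutant arrays lay above the 8 others. The differences were 0.82 ± 0.16 for H/A minus WT (adjusted p = 0.00566), 0.93 ± 0.16 for Del minus WT (adjusted p = 0.00165) and 1.04 ± 0.16 for Del minus Flox (adjusted p = 0.000588). Rrm2, the small subunit whose level limits the enzyme in S phase, had 6.05, 6.77, 5.72 and 6.56 in H/A livers and 6.50, 6.31, 6.50 and 5.82 in Del livers, against 4.65, 4.38, 4.53 and 5.48 in Flox livers and 5.02, 5.75, 4.58 and 4.99 in WT livers. WT 2 overlapped with H/A 3. The differences were 1.19 ± 0.29 for H/A minus WT (adjusted p = 0.0201), 1.2 ± 0.29 for Del minus WT (adjusted p = 0.0143) and 1.52 ± 0.29 for Del minus Flox (adjusted p = 0.00237). The H/A call ended without any of H/A 2, H/A 4, WT 3, WT 4 (adjusted p = 0.0552 to 0.0704) and the Del call against WT without WT 3, Del 3 (adjusted p = 0.0517 to 0.0521). Tk1, the thymidine kinase of the salvage pathway, ran 7.83 to 8.58 in H/A, 7.55 to 8.54 in Del, 7.99 to 9.04 in Flox and 7.92 to 9.49 in WT livers and was not called by its brightest probe.

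Of the 4 chromatin genes, 3 rose in each comparison, with medians of 1.63, 1.89 and 1.57. Uhrf1, which reads hemimethylated DNA behind the fork and recruits Dnmt1, had 5.31, 5.74, 6.28 and 6.38 in H/A livers and 7.23, 6.61, 5.80 and 6.13 in Del livers, against 2.85, 1.38, 2.49 and 2.74 in Flox livers and 2.88, 3.81, 3.10 and 3.31 in WT livers. It was well above background on all 8 mutant arrays, on 1 WT array and on 0 Flox arrays, so it passed the filter only through mutant arrays. It was at least 8.21-fold higher in Del than in Flox livers (adjusted p = 9.39e-06), and the differences from WT were 2.65 ± 0.36 in H/A (adjusted p = 0.000538) and 3.17 ± 0.36 in Del (adjusted p = 7.28e-05). The differences from WT and their p-values rest partly on dim WT signals. Chaf1a, the large subunit of the histone chaperone CAF-1, had 6.32, 6.62, 6.85 and 6.59 in H/A livers and 7.39, 6.57, 7.33 and 6.88 in Del livers, against 5.19, 5.09, 4.63 and 5.62 in Flox livers and 4.74, 5.33, 4.79 and 4.75 in WT livers. No mutant array reached down to the others. The differences were 1.69 ± 0.23 for H/A minus WT (adjusted p = 0.000498), 2.14 ± 0.23 for Del minus WT (adjusted p = 4.63e-05) and 1.91 ± 0.23 for Del minus Flox (adjusted p = 9.97e-05). Dnmt1, the maintenance DNA methyltransferase, had 5.30, 5.47, 5.24 and 5.93 in H/A livers and 5.86, 4.91, 6.09 and 5.37 in Del livers, against 4.78, 4.12, 4.60 and 3.78 in Flox livers and 3.90, 4.81, 3.18 and 3.81 in WT livers. Del 2, WT 2 and Flox 1 came close to each other, but no mutant array overlapped with the others. The differences were 1.56 ± 0.33 for H/A minus WT (adjusted p = 0.00852), 1.63 ± 0.33 for Del minus WT (adjusted p = 0.00453) and 1.24 ± 0.33 for Del minus Flox (adjusted p = 0.0132), and Del against Flox was not called without Del 3 (adjusted p = 0.0509). Chaf1b, the middle subunit of CAF-1, was not called by its brighter probe.

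Several genes that were not called had a further probe with another result, when each probe past the filter was fitted on its own. Chaf1b differed by 0.00, -0.06 and -0.35 on its brighter probe, and by 1.28, 1.51 and 1.62 on the other, of a predicted transcript (adjusted p = 0.00124, 0.000233 and 0.000135). Timeless gave -0.31, -0.04 and -0.16 on the brighter probe and 0.95, 1.33 and 1.52 on the other (adjusted p = 0.0126, 0.000953 and 0.000333), both of predicted transcripts. Dbf4 gave -0.19, 0.06 and 0.06 on the brighter probe and 0.81, 1.11 and 1.14 on the other (adjusted p = 0.117, 0.0387 and 0.0203). Pole2 gave 0.61, 0.62 and 0.69 on the brighter probe, of a predicted transcript, and 1.69, 1.65 and 1.00 on its curated probe (adjusted p = 0.039, 0.0344 and 0.113), which was well above background on 5 arrays. For these genes the count of called genes therefore rests on which probe stands for the gene. Tyms, which rose, gave -0.17, -0.09 and -0.33 on a further probe of a non-coding transcript, with no call. Tk1 had 4 probes past the filter with 12 differences, each below 0, of which the dimmest probe was called in H/A against WT (-1.84, adjusted p = 0.0146) and in Del against WT (-1.86, adjusted p = 0.00957). Pola1 rose on both of its probes in all 3 comparisons. Whether a probe reads the transcript it was designed for was not tested.

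**Figure D4:**
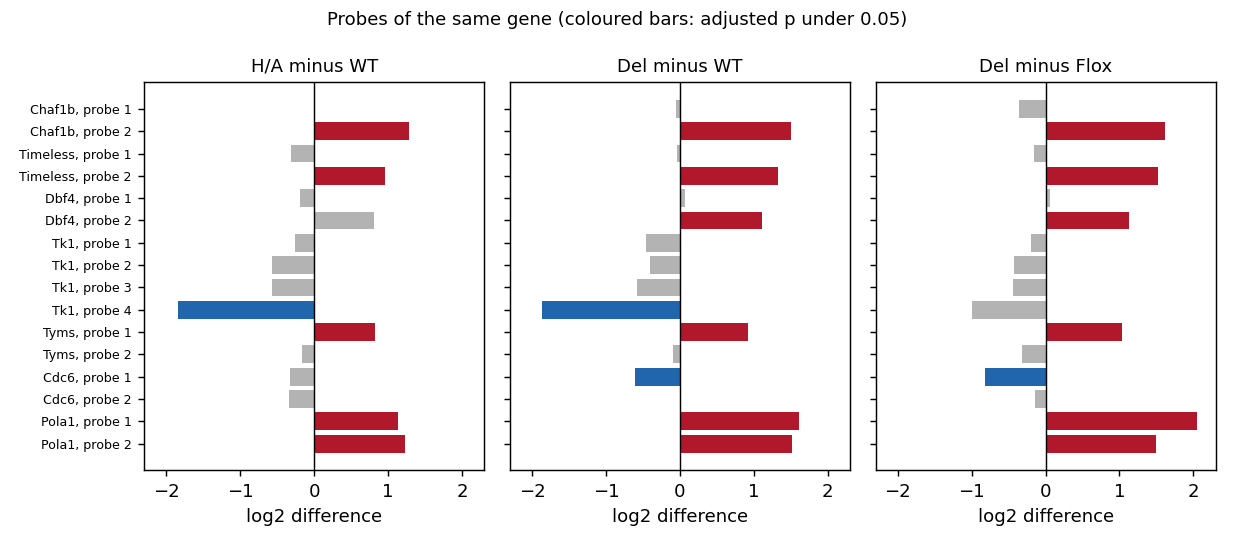
Log2 differences of each probe past the filter for 7 genes (probe 1 is the brightest) for H/A minus WT, Del minus WT and Del minus Flox. Coloured bars had an adjusted p under 0.05; both Pola1 probes are red in all 3 panels, while the probes of Chaf1b, Timeless, Dbf4 and Tyms differ from each other.

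The remaining genes of the pathway were read from 5 lists of 68 genes in all, 56 of them tested. H/A livers had 13 of these called higher than WT and 0 lower, and in Del against WT 17 rose and 1 fell. In Del against Flox 25 rose and 4 fell, and the medians of the 3 comparisons were 0.33, 0.37 and 0.44. Of all genes tested, 7.08%, 8.86% and 16.6% were called higher in these comparisons, and 2.98%, 4.38% and 18.2% lower. The same shares apply to the counts by list below. Of 9 genes of the E2F and pocket protein list, 0 rose in either line against WT by limma. The 1 gene with an unadjusted p under 0.05 in each line was E2f7, which was lower there. E2f2, an activator E2F, rose in Del against Flox (1.98, adjusted p = 0.0257). E2f7, an atypical E2F that represses S phase genes, had 6.26, 6.48, 5.91 and 6.57 in H/A livers and 5.84, 5.82, 5.85 and 5.75 in Del livers, against 6.87, 6.79, 6.93 and 6.69 in Flox livers and 6.48, 6.57, 6.81 and 6.54 in WT livers. The 4 Del arrays lay below every other array. It fell in Del against WT (-0.79 ± 0.14, adjusted p = 0.00163) and against Flox (-1.01 ± 0.14, adjusted p = 0.000244), and H/A minus WT was -0.29 ± 0.14 (adjusted p = 0.149). The retinoblastoma gene Rb1 was not called, nor were its relatives Rbl1 and Rbl2.

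Of 9 cyclin and kinase genes, 3 rose in H/A, the same count rose in Del against WT, and 5 rose in Del against Flox. Ccna2, cyclin A2, which acts in S phase, ran 5.01 to 6.79 in H/A, 6.39 to 7.30 in Del, 1.34 to 4.79 in Flox and 2.15 to 4.2 in WT livers, and was well above background on all 8 mutant arrays, 2 Flox arrays and 1 WT array. Its differences were 3.05 ± 0.62 for H/A minus WT (adjusted p = 0.00673), 3.90 ± 0.62 for Del minus WT (adjusted p = 0.000848) and 3.54 ± 0.62 for Del minus Flox (adjusted p = 0.0013). Ccna2 passed the filter only through mutant arrays, so these values rest partly on dim Flox and WT signals. Cdc25a, the phosphatase that activates cyclin E kinase, rose by 0.75, 0.73 and 1.2. The first of these calls ended without any of H/A 2, H/A 3, H/A 4, WT 1, WT 3, WT 4 (adjusted p = 0.0689 to 0.115) and the next without any of WT 1, WT 3, WT 4, Del 1, Del 3 (adjusted p = 0.067 to 0.11). Skp2, the ubiquitin ligase subunit that removes p27, rose by 0.98 in H/A and 1.40 in Del against WT. The H/A call of Skp2 (adjusted p = 0.0497) ended when any of the arrays H/A 1, H/A 2, H/A 3, H/A 4, WT 2, WT 3, WT 4, Del 1, Del 4, Flox 1, Flox 2, Flox 3, Flox 4 was left out (adjusted p = 0.0512 to 0.117), and the Del difference from Flox was 0.60 (adjusted p = 0.119), called without WT 2 or Del 2.

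Of 6 inhibitors of cyclin-dependent kinases, 1 rose in H/A and 1 in Del against WT, and in Del against Flox 2 rose and Cdkn1c, p57, fell (-0.37, adjusted p = 0.0362). Cdkn1a, p21, had 8.08, 9.62, 9.73 and 11.16 in H/A livers and 11.69, 10.96, 10.36 and 9.55 in Del livers, against 6.94, 8.38, 8.29 and 6.97 in Flox livers and 6.12, 10.86, 7.27 and 7.52 in WT livers. The Del arrays lay above the Flox arrays, and WT 2 reached the mutant values. It rose in Del against WT (2.70 ± 0.84, adjusted p = 0.0468) and against Flox (3.00 ± 0.84, adjusted p = 0.017), and H/A minus WT was 1.71 ± 0.84 (adjusted p = 0.169). The call against WT ended without any of H/A 2, H/A 3, WT 1, WT 3, WT 4, Del 1, Del 2, Del 3, Flox 1, Flox 2, Flox 3, Flox 4 (adjusted p = 0.0525 to 0.137), and without WT 2 the H/A difference was called. Cdkn2d, p19 of the INK4 family, had 5.66, 6.19, 6.26 and 6.28 in H/A livers and 5.15, 5.17, 6.25 and 5.71 in Del livers, against 5.08, 4.83, 4.35 and 5.05 in Flox livers and 5.22, 5.42, 5.23 and 4.56 in WT livers. H/A arrays lay above WT arrays and Del arrays above Flox arrays. It rose in H/A (0.99 ± 0.26, adjusted p = 0.0268) and in Del against Flox (0.74 ± 0.26, adjusted p = 0.0387). Those calls ended without any of H/A 2, H/A 3, H/A 4, WT 3, WT 4 for H/A (adjusted p = 0.0543 to 0.0934) and without any of Del 3, Del 4, Flox 1, Flox 2, Flox 3 for Del (adjusted p = 0.0511 to 0.14).

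**Figure D5:**
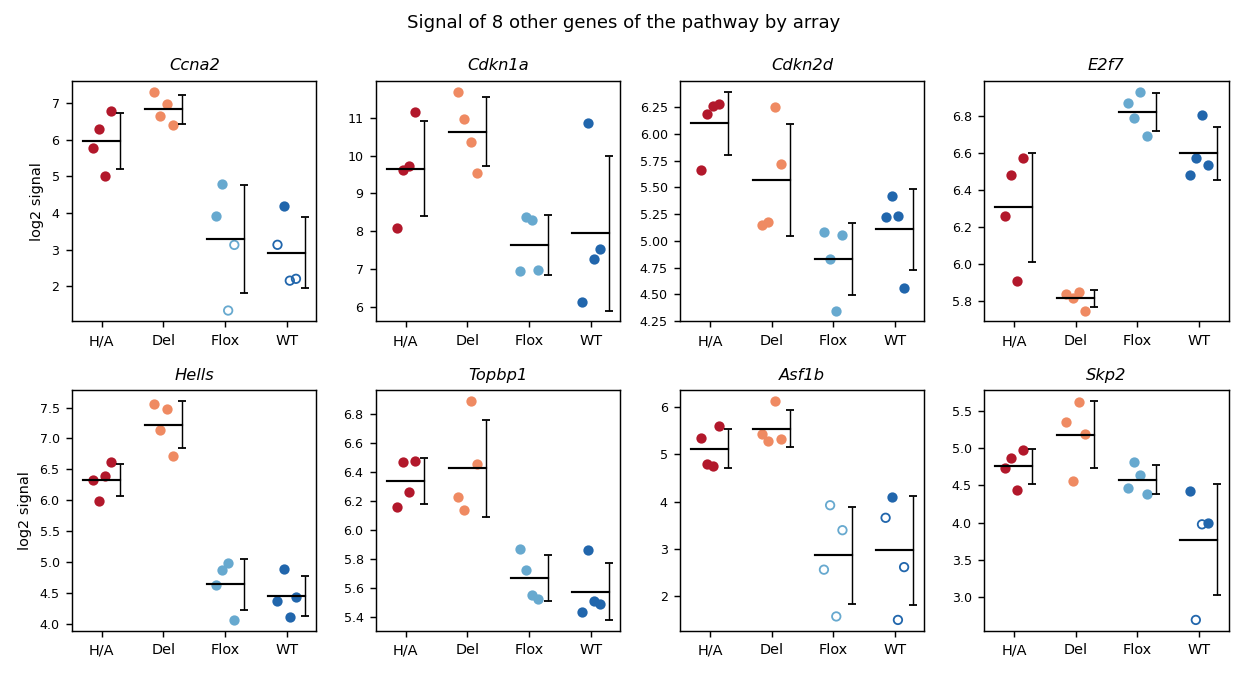
Log2 signal of 8 other genes of the pathway on each array by genotype (H/A, Del, Flox, WT); the bar is the mean, the whisker 1 SD of 4 arrays, and open circles are values not well above background. Ccna2, Hells, Topbp1 and Asf1b separate the mutant arrays from the others, E2f7 is lowest in Del, and WT 2 is high for Cdkn1a.

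Of 20 other origin and fork genes, 4 rose in H/A, 6 in Del against WT, and 8 rose and 2 fell in Del against Flox. Mtbp, a partner of the origin-firing factor Treslin, rose by 1.12, 1.32 and 1.26, and Topbp1, which helps to load GINS, by 0.77, 0.85 and 0.76. Chtf18, of an alternative clamp loader, was well above background on 0 Flox and 0 WT arrays, and was higher by at least 2.31-fold for H/A against WT, 2.62-fold for Del against WT and 2.89-fold for Del against Flox (adjusted p = 0.0106, 0.00419 and 0.00148). Pold4, the small subunit of polymerase delta, rose by 0.77, 0.59 and 0.80, where Del against WT was not called without any of WT 1, WT 4, Del 3 (adjusted p = 0.0643 to 0.0755). Of 12 other nucleotide and chromatin genes, 5 rose in H/A, 7 in Del against WT and 9 in Del against Flox.

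Hells, a remodeller needed for DNA methylation, had 6.33, 5.99, 6.39 and 6.62 in H/A livers and 7.55, 7.14, 7.47 and 6.72 in Del livers, against 4.63, 4.88, 5.0 and 4.07 in Flox livers and 4.37, 4.89, 4.12 and 4.44 in WT livers. Every mutant array lay above every other array. The differences were 1.88 ± 0.23 for H/A minus WT (adjusted p = 0.000303), 2.77 ± 0.23 for Del minus WT (adjusted p = 8.76e-06) and 2.58 ± 0.23 for Del minus Flox (adjusted p = 1.25e-05). Asf1b, the histone chaperone of S phase, was well above background on 0 Flox and 1 WT arrays. It was at least 4.25-fold higher in Del than in Flox livers (adjusted p = 0.00258), and differed from WT by 2.16 in H/A and 2.58 in Del. Asf1b passed the filter only through mutant arrays, and these differences from WT rest partly on dim signals. The H/A call of Asf1b ended without any of H/A 4, WT 3, WT 4 (adjusted p = 0.0515 to 0.0592). Dck, deoxycytidine kinase, rose by 0.88 in H/A and by 0.92 in Del against WT, and by 0.81 in Del against Flox.

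The mean log2 signal of the 45 genes was 6.81 to 7.11 on H/A arrays, 7.0 to 7.25 on Del arrays, 5.90 to 6.28 on Flox arrays and 5.99 to 6.33 on WT arrays. Within the 2 slides of the labels, the median difference of the 45 genes was 0.52 and 0.83 for H/A minus WT, 0.72 and 1.03 for Del minus WT, and 0.80 and 0.85 for Del minus Flox. H/A had 1 array on the second slide and Del 1 on the first, and such a lone array is taken to vary like the other groups. Mcm2 differed by 1.74 and 2.97 in H/A and by 2.73 and 3.08 in Del from WT on the first and second slide, and Ccnd1 by 1.97 and 2.01 in H/A and 1.92 and 2.25 in Del. With these few arrays, 0 of 45 genes were called higher for H/A against WT on the first slide by limma (22 had an unadjusted p under 0.05) and 9 on the second, where 0.035% and 1.38% of all genes were called higher. For Del against WT these counts were 3 and 23 (0.318% and 5.8% of all genes), and for Del against Flox 2 and 22 (0.375% and 7.45%). Over the 16 arrays, the genes outside the lists whose signal ran closest to the mean of the 45 were the histone gene H3c4, Myh9, Tagln2, Tm4sf4 and Pygb (Pearson r from 0.985 to 0.987), a description over arrays that share their scaling and their group differences.

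Of the cell type lists, only those of dividing cells and of macrophages had most of their tested genes called higher. The shares of all genes called higher were 7.08% for H/A against WT, 8.86% for Del against WT and 16.6% for Del against Flox. Of 9 proliferation markers tested, 6 rose in each comparison, among them Mki67 by 1.76, 2.35 and 1.99 and Top2a by 3.33, 3.92 and 3.12, while Plk1 and Cenpf were not called and Kif11 fell in Del against Flox (-0.51, adjusted p = 0.0212). The summed signal of the 9 was 1758.5 to 2857 in H/A, 2325 to 3486.5 in Del, 1574 to 1906.5 in Flox and 1382 to 1602 in WT arrays. Of 8 Kupffer cell and macrophage markers tested, 7 rose in H/A and 6 in Del against WT, and 5 rose and 1, Csf1r, fell in Del against Flox. Their summed signal was 4198 to 9149.5 in H/A, 3714 to 4503.5 in Del, 1841.5 to 2565 in Flox and 1458 to 2801 in WT arrays, and Itgam was well above background on 0 of 16 arrays. Of 8 lymphocyte markers tested, 0 were called by limma in the 3 comparisons (1, 2 and 4 had an unadjusted p under 0.05), with Cd3g well above background on 1 array. Of 6 neutrophil markers, S100a8 rose in each comparison and S100a9 in H/A, and none was called lower. Differences above 0 numbered 4 in H/A against WT, 2 in Del against WT and 2 in Del against Flox. The medians of the 6 were 0.39, -0.14 and -0.37. Of 4 erythroid markers tested, Alas2 fell in H/A against WT (-2.09, adjusted p = 0.0268) and Klf1 in Del against Flox (-0.55, adjusted p = 0.0144), and their summed signal was 397 to 1418 in H/A, 687 to 1790.4 in Del, 869 to 3226 in Flox and 2239 to 2513 in WT arrays. Of 5 cholangiocyte markers tested, Sox9 rose in Del against Flox (1.09, adjusted p = 0.0169). The 7 hepatocyte markers, Alb, Apoa1, Ttr, Tat, Hnf4a, Cps1 and Serpina1c, were well above background on all 16 arrays, as the liver label asks, and Cps1 was higher and Serpina1c lower in H/A and in Del against WT or Flox, Cps1 not being called in Del against WT. The part of macrophages, neutrophils or other cells in the rise of the replication genes was not tested.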

How the data were processed

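RNA from 25 mg of liver was labelled with Cy3 and hybridised to 1-colour Agilent arrays, per the labels' protocols. Labelling used random and oligo-dT primers. The deposited value table holds log2 signals of 60037 probes; every column has the same median, 4.36, and each column correlated at 1 with the quantile-normalised scanner signals, so the scale is log2 and the authors' scaling is quantile normalisation. Agilent Feature Extraction 11 and Partek are named, per the submitters' processing notes. The scanner files hold background-subtracted intensity for each spot, per the file headers. Genes were named through RefSeq accessions, which gave 36264 probes 1 symbol and 23773 none.

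For each gene the brightest probe over the 16 arrays was kept if it was well above background on at least 4 arrays. This left 31459 genes, 17642 of them with a symbol. The number of arrays limits the precision. One limma model (R 4.3.3, limma 3.58.1) of 4 genotypes gave each comparison, with p-values adjusted by Benjamini-Hochberg over all 31459 genes and a threshold of 0.05. The fit was tested on simulated data. The members, the pathway lists and the markers were chosen with earlier results of these data known.

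Values per array are given for the G1/S control genes, for the 3 genes of each other step whose larger p of the 2 comparisons with WT was smallest, and for those called lower. From each pathway list came the called genes with the smallest p in H/A or Del against WT. E2f2, Cdkn1c, Rb1, Rbl1, Rbl2 and members outside this rule were named after their values were seen. Alternatives changed the source of the values, background correction, scaling, filter, probe, slide, samples, moderation and array weights. The choice of curated probes, single probes and samples with matching slides was made after seeing the data. No gene entry for CerS2 was analysed here, and some genes of the lists are counted but not reported here by name.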

Additional observations from a re-analysis of the deposited data

Results flagged for a closer look

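In 7 of 132 groups of 4 arrays, over 33 genes named by the rule above, 1 array stood apart. It was the highest or lowest, set apart from the other 3 by Dixon's test of the gap to the nearest array. Chance flags about 1 in 20 such groups. Del 3 was highest in its group for 3 genes: Ccnd1 at 10.908 on the log2 scale, where the other Del arrays lay between 10.172 and 10.205; Gins2 at 5.842, others between 5.086 and 5.143; and Asf1b at 6.126, others between 5.294 and 5.432. WT 2 was highest among WT arrays for Chaf1a at 5.334 (others 4.738 to 4.79) and Topbp1 at 5.864 (others 5.436 to 5.507). WT 3 was highest for Ccne2 at 4.931 (others 4.024 to 4.175). H/A 1 was the lowest H/A array for Cdkn2d at 5.66 (others 6.187 to 6.276).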

How the results depend on the processing

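The counts of replication genes called higher, 25 for H/A against WT, 26 for Del against WT and 29 for Del against Flox, were each 0 with the scanner files as listed for the samples. They were 0, 3 and 2 within the first slide of the labels, and 9, 23 and 22 within the second, and 10, 16 and 11 in samples whose listed file and label name the same slide. Fewer arrays entered each of these slide and sample settings. With a single array left out they ran from 20 to 27, 21 to 28 and 24 to 29, and the other comparisons stayed at 0. Without scaling between arrays they were 35, 22 and 26. In that setting 29.9%, 5.74% and 10.8% of all genes were called higher, against 7.08%, 8.86% and 16.6% with scaling. That setting moved the H/A median of all genes to 0.373 and the members' median to 1.202, and the share of calls that were higher was 98.7% for H/A against WT (70.4% with scaling), 80.5% for Del against WT (66.9%) and 78.1% for Del against Flox (47.8%). Array weights raised the calls over all genes for H/A against WT to 13458, against 3162, with 42.2% of them higher (18.1% of genes tested). There 32 replication genes were called higher and 3, Cdc6, Clspn and Timeless, lower in H/A. With the slide read from the file name and fitted as a block there were 21, 19 and 28 replication genes. Of all genes, 5.12%, 3.36% and 15.4% were called higher there, and calls over all genes for Del against WT were 1262, against 4163. No called gene named by the rule above changed sign under any alternative run. Of 50 calls of the replication genes named by the rule above, 41 held with any single array left out. Of 35 calls of the pathway genes named by it, 27 did. Replication genes outside the rule lost calls too, among them Orc6, Gins1, Pcna, Rfc4, Rpa1, Rpa2 and Rpa3. The cause of each lost call was not tested. No paired analysis was possible because the labels give no replicate numbers, and those used here only name samples. Dim genes limit the depth: Cdc7 and Tipin had no test, and Gins2, Uhrf1, Chtf18 and Asf1b have lower bounds in some comparisons. Like Cdc45 and Ccna2, the genes with lower bounds passed the filter only through mutant arrays. The replication genes among these, Gins2, Uhrf1 and Cdc45, are part of the counts and medians given above.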

Other observations

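Ccnb1, cyclin B1 of mitotic entry, exceeded WT livers by at least 3.74-fold in H/A and 6.60-fold in Del livers, being well above background on 0 WT arrays. Aurkb, a mitotic kinase, was higher by at least 1.96-fold for H/A against WT, 2.82-fold for Del against WT and 3.10-fold for Del against Flox. Of 8 stellate cell and fibroblast markers, 0 were called by limma in either line against WT (1 had an unadjusted p under 0.05 in H/A and 4 in Del). Of all genes, 7.08% were called higher and 2.98% lower in H/A against WT, and 8.86% and 4.38% in Del against WT. Col1a1, Col1a2, Dcn and Acta2 rose in Del against Flox, where 16.6% of all genes were called higher and 18.2% lower. Of 7 sinusoidal endothelial markers, 0 were called in H/A or Del against WT by limma (1 in each had an unadjusted p under 0.05).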
